A study of Mus musculus with 12 samples.

Results

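The genes of the Polycomb complexes were examined for histone marks in crypts and villi, the 2 compartments of the mouse small-intestinal epithelium. The 9 genes Ezh1, Ezh2, Eed, Suz12, Jarid2, Bmi1, Cbx2, Cbx7 and Cbx8 were chosen by name, out of 21853 protein-coding genes of the annotation, and every peak of H3K4me3, H3K4me1, H3K27me3 and H3K9me3 that touched a gene body or the 5 kb on either side of it was taken. These windows lie on GRCm38, the assembly that mm10 names. All 9 genes were found in the annotation and none was filtered out.

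The study followed the cleavage of the N-terminal tail of histone H3 in the villi. Crypts hold the stem and dividing cells of the epithelium, and villi carry mostly differentiated enterocytes. The villi were scraped off the opened mouse intestine and the crypts were released from the remaining tissue with EDTA. No treatment or genetic change is given for these samples, and the strain, sex and age of the mice and the number of animals pooled are not given in the sources used here. Immunoprecipitation was carried out by ChIP-Rx, in which a known share of Drosophila S2 chromatin is added to each sample. Each modification was profiled once in each compartment, so the crypts and villi values are set side by side without a test. The files hold peaks and no read counts, so the depth is unknown.

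Polycomb repressive complex 2 (PRC2) places the methyl groups of H3K27me3. Ezh1 and Ezh2 are its alternative catalytic subunits, Eed binds the finished mark, Suz12 holds the core together and Jarid2 is an accessory subunit that helps to recruit the complex. Polycomb repressive complex 1 (PRC1) ubiquitinates histone H2A. Bmi1 is a subunit of its catalytic module, and Cbx2, Cbx7 and Cbx8 are alternative chromodomain proteins through which PRC1 reads H3K27me3. H3K4me3 marks active or poised promoters, H3K4me1 marks enhancers and the flanks of promoters, and H3K9me3 marks heterochromatin and repeats.

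Among the 9 genes chosen, H3K27me3 divided the PRC1 from the PRC2 genes, a split that did not extend to the other genes of the complexes counted further on. The Cbx genes were included because they may carry H3K27me3, with earlier results of these data known, so the split is in part a matter of which genes were chosen. All 9 had an H3K4me3 promoter peak in crypts and in villi, a promoter peak being one within 1 kb of the start site of a coding transcript. The 5 PRC2 genes had no H3K27me3 peak anywhere in their windows in either compartment, and all coding genes had one in the window in 17.9% of cases in crypts and 23% in villi. The 4 PRC1 genes had an H3K27me3 promoter peak in both compartments, in addition to their H3K4me3 peak. Among all coding genes, 57.7% in crypts and 57.9% in villi had an H3K4me3 promoter peak, and 13.1% and 16.1% had one of H3K27me3. An H3K4me3 peak anywhere in the window, which all 9 genes also had, was found for 63.2% and 63.5%. Both marks stood at the promoter in 6.59% of coding genes in crypts and 7.87% in villi. Both marks in both compartments, as at the 4 PRC1 genes, were found at 5.65% of coding genes, and H3K4me3 without H3K27me3 in both, as at the 5 PRC2 genes, at 49%. The 4 PRC1 genes are not 4 separate loci, since Cbx2 and Cbx8 are convergent neighbours whose windows overlap.

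**Figure D1:**
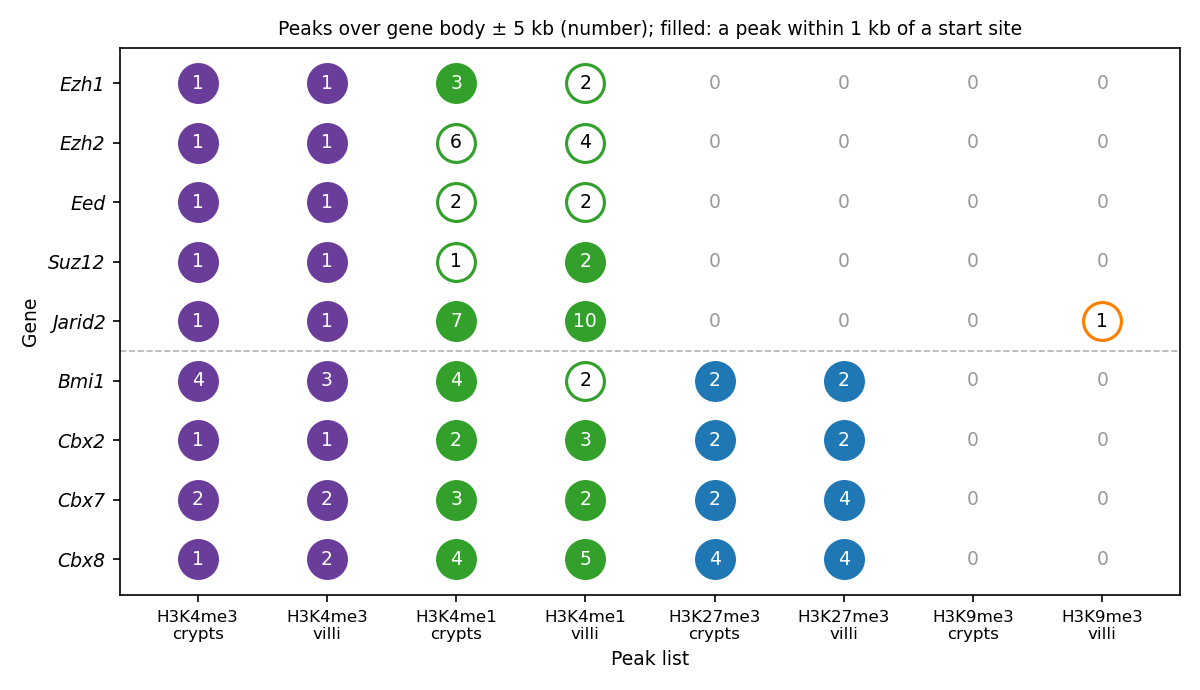
Number of peaks over each gene body ± 5 kb (rows) in each of the 8 peak lists (columns). Filled circles mark genes with a peak within 1 kb of a coding start site, open circles genes whose peaks lie only elsewhere in the window, and 0 marks no peak. The dashed line separates the 5 PRC2 genes above from the 4 PRC1 genes below, which alone carry H3K27me3 here.

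The letters of 5 promoters, and after them those of the H3K27me3-covered DNA beside the 4 PRC1 promoters, are given to show the sequence on which the marks lay. The promoter stretches below lie directly upstream of a RefSeq start site or, for Cbx7 and Cbx8, are the longest run of that stretch outside annotated exons. They are read 5′ to 3′ on the gene's strand from RefSeq on GRCm38.p6, with each CG dinucleotide, the base pair step that CpG islands are rich in, in capitals. Suz12 (chr11:79992856-79993105, + strand) and Jarid2 (chr13:44730524-44730773, + strand) stand for the PRC2 genes, and Bmi1 (chr2:18676768-18677017, + strand), Cbx7 (chr15:79932769-79932896, − strand) and Cbx8 (chr11:119040970-119041163, − strand) for the PRC1 genes.
Suz12 promoter: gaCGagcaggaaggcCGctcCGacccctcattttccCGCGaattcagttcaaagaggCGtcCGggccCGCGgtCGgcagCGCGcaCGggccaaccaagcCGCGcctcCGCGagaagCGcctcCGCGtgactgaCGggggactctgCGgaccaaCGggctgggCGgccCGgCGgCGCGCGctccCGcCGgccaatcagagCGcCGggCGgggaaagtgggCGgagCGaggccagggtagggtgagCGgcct
Jarid2 promoter: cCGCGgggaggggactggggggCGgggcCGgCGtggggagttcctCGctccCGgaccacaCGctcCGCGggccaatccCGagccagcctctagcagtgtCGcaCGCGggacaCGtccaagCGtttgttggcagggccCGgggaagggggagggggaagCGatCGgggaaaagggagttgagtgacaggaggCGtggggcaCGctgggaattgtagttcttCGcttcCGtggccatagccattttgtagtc
Bmi1 promoter: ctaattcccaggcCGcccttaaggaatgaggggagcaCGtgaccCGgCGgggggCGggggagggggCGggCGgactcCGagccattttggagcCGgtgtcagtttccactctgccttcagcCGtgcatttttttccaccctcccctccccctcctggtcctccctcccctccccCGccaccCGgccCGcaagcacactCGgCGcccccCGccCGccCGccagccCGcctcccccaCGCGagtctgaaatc
Cbx7 promoter: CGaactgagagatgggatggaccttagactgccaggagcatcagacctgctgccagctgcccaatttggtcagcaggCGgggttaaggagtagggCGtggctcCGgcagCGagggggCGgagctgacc
Cbx8 promoter: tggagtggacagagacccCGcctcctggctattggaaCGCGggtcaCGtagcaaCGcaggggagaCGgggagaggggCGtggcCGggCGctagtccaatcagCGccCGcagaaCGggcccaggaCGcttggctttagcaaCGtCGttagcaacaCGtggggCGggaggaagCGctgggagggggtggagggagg

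The H3K4me3 peak covered all of these bases in both compartments except at Bmi1, where it reached only 24 bases upstream of the start site in crypts and 6 in villi. No H3K27me3 peak covered any of them. RefSeq promoters of 300 bases were found for 8 of the 9 genes, all but Cbx2. The CG dinucleotide, counted as the letters CG, which read the same on the other strand, occurred 41 times in the Suz12 promoter, 33 times in that of Cbx7 and 31 times in that of Ezh2. Jarid2 and Cbx8 had 24 each, Ezh1 and Bmi1 23 each, and Eed 17. The median over 32851 mouse promoters of this length was 7, with quartiles of 3 and 20, and 94.6% of them held at least 1 CG. The CG content thus did not separate the PRC1 from the PRC2 promoters.

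The middle 200 bases of the stretch that H3K27me3 covered in both crypts and villi are given next for the promoter peaks of the 4 PRC1 genes, on the + strand, again with CG in capitals. All 4 lie outside annotated exons, Bmi1 at chr2:18679139-18679338, Cbx2 at chr11:119020422-119020621, Cbx7 at chr15:79934080-79934279 and Cbx8 at chr11:119042843-119043042.
Bmi1 H3K27me3: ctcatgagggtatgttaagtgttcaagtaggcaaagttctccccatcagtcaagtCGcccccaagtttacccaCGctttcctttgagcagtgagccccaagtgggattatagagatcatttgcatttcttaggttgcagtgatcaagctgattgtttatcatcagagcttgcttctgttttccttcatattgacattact
Cbx2 H3K27me3: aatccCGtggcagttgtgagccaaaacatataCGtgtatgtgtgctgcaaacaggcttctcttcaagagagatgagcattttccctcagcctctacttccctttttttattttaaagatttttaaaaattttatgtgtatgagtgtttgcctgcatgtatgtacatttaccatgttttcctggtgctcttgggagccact
Cbx7 H3K27me3: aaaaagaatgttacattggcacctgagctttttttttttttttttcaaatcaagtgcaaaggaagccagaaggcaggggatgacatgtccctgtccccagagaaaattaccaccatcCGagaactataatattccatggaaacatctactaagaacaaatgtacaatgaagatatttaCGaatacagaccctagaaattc
Cbx8 H3K27me3: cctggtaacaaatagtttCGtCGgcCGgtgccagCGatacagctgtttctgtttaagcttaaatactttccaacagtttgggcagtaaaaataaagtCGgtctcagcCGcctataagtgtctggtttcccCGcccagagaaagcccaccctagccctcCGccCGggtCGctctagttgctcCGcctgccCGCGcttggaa

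These 200 bases held 2 CG at Bmi1, Cbx2 and Cbx7 and 13 at Cbx8. Over whole peaks in crypts, Bmi1 had 9.99 CG per 100 bp under its H3K4me3 promoter peak and 1.23 under its H3K27me3 promoter peak. The same pair of values was 7.73 and 2.00 at Cbx2, 6.47 and 2.52 at Cbx7, and 6.23 and 3.89 at Cbx8. The H3K4me3 peak was thus the richer in CG at all 4 genes. The median over all crypts peaks was 4.22 CG per 100 bp for H3K4me3 and 2.13 for H3K27me3, so the lists as a whole differed in the same direction.

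At the PRC1 genes the 2 marks were offset and overlapped in part. Of the H3K4me3 peak, 45.5% in crypts and 46.7% in villi lay under the H3K27me3 promoter peak at Bmi1, 25.3% and 37.7% at Cbx8, 10.0% and 14.4% at Cbx2, and 1.22% and 0% at Cbx7. The start sites that H3K4me3 covered were free of H3K27me3 at all 4 genes in both compartments. Among all genes with both promoter peaks, 42.4% in crypts (611 of 1441) and 44.9% in villi (771 of 1719) had a start site under both. In crypts, the distance from an H3K4me3-covered start site to the edge of the H3K27me3 promoter peak was 22 bp at Bmi1, 263 bp at Cbx2, 283 bp at Cbx7 and 601 bp at Cbx8. In villi it was 23, 309, 348 and 681 bp in the same order. A peak edge is set by the peak caller and the chromatin was sheared to fragments longer than most of these distances, so a gap as small as that at Bmi1 is finer than the method resolves.

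**Figure D2:**
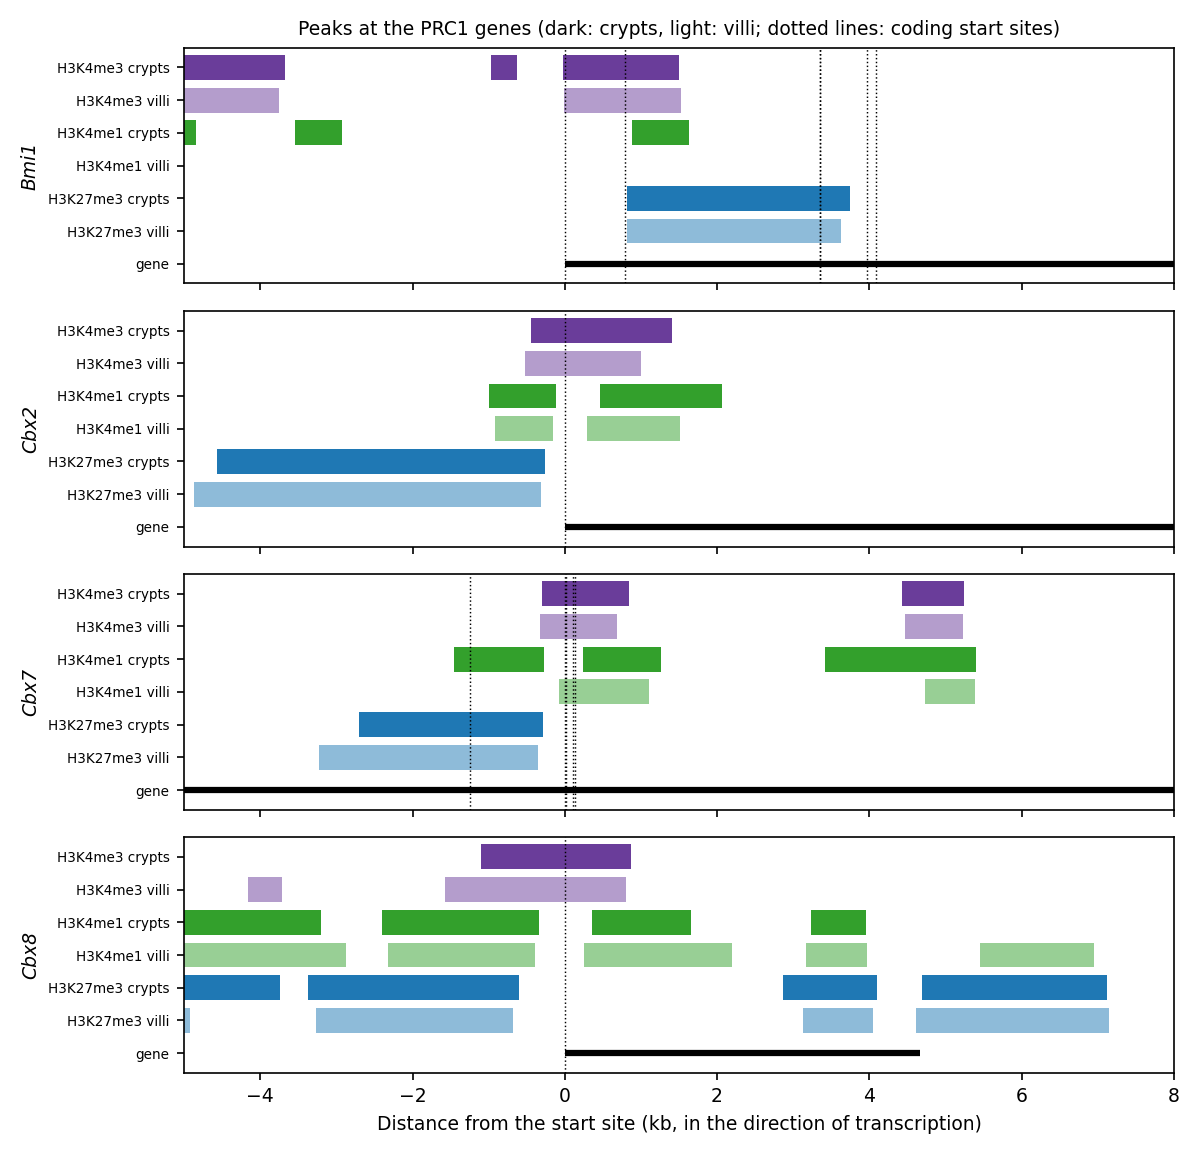
Peaks of H3K4me3 (purple), H3K4me1 (green) and H3K27me3 (blue) at the 4 PRC1 genes, in kb from the first coding start site, or for Cbx7 from the first of the 4 start sites that H3K4me3 covered, in the direction of transcription. Dark bars are crypts, light bars villi, dotted lines coding start sites and the black line the gene. Peaks that do not touch the window of gene body ± 5 kb are not drawn. H3K27me3 begins within the H3K4me3 peak, or at its edge at Cbx7, and reaches downstream at Bmi1 and upstream at Cbx2, Cbx7 and Cbx8.

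Bmi1 (chr2:18677018-18686629, + strand) carried H3K4me3 at its 5′ end and H3K27me3 within the gene. The H3K4me3 peak measured 1531 bp in crypts (chr2:18676994-18678524) and 1536 bp in villi (chr2:18677012-18678547). The H3K27me3 promoter peak measured 2937 bp in crypts (chr2:18677829-18680765) and 2817 bp in villi (chr2:18677830-18680646). Its upstream edge thus moved by 1 bp between the 2 libraries. The marks shared 696 bp in crypts and 718 bp in villi. The shared stretch held no annotated start site, and H3K27me3 covered 2 start sites further downstream, at 3354 and 3356 bp, which carried no H3K4me3. A further H3K4me3 peak of 343 bp upstream of the first start site (chr2:18676049-18676391) was called in crypts alone, at 85.2% from the top of its list by score, and overlaps the gene Commd3.

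The most prominent H3K27me3 peak over any of the 9 genes in crypts began at the 3′ end of Bmi1. It spanned 17427 bp (chr2:18686184-18703610), from inside the last bases of the gene to the body of Spag6, and ranked 2 of 7611 peaks by score. In villi the same region held 2 peaks of 7449 bp (chr2:18686245-18693693) and 8491 bp (chr2:18695052-18703542), together 15940 bp, at ranks 1842 and 140 of 13797. The 1358 bp between them (chr2:18693694-18695051) contain the 5′ end of Spag6 at position 18694032. An H3K4me3 peak lay there in both compartments, 1119 bp wide in crypts and 1214 wide in villi. In crypts it was therefore inside the H3K27me3 peak, and in villi it sat in the gap, but for its first 2 bp. A second H3K4me3 peak, 1664 bp wide in crypts and 1738 wide in villi, lay 2309 bp downstream of Bmi1 within H3K27me3 in both compartments, together with an H3K4me1 peak of 2231 and 2391 bp. It held 8.05 CG per 100 bp in crypts. Within its own window, Bmi1 had 8383 bp under H3K27me3 in crypts and 8202 bp in villi.

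Cbx2 (chr11:119022962-119031270, + strand) and Cbx8 (chr11:119036305-119040969, − strand) point towards each other, and H3K27me3 lay upstream of each and between them. At Cbx2 the upstream peak measured 4310 bp in crypts (chr11:119018390-119022699) and 4566 bp in villi (chr11:119018088-119022653), the widest H3K27me3 promoter peak of the 9 genes in both compartments. It shared 187 bp in crypts and 221 bp in villi with the H3K4me3 peak, which measured 1863 and 1536 bp. At Cbx8 the upstream peak measured 2775 bp in crypts (chr11:119041570-119044344) and 2585 bp in villi (chr11:119041650-119044234). It shared 499 and 900 bp with an H3K4me3 peak that was 1973 bp wide in crypts and 2387 wide in villi. The overlap at Cbx8 was thus larger in villi, where the H3K4me3 peak reached further upstream.

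The H3K27me3 peak between the 2 genes was counted for both. It measured 2431 bp in crypts (chr11:119033847-119036277) and 2529 bp in villi (chr11:119033822-119036350), with 3.83 and 3.76 CG per 100 bp. By score it stood 17.2% from the top of the crypts list and 3.77% from the top of the villi list. A peak over the last exon of Cbx8 measured 1240 bp in crypts and 917 bp in villi.

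Further upstream of Cbx8 the extent of H3K27me3 differed between the compartments. Crypts had an H3K27me3 peak of 5520 bp (chr11:119044715-119050234), 13.4% from the top of its list, of which 1255 bp lay in the window. Villi had 2 peaks under it, of 782 bp (chr11:119045889-119046670) and 1339 bp (chr11:119047206-119048544), together 2121 bp, at 95.1% and 47.5% from the top. Of these, 81 bp lay in the window. A villi H3K4me3 peak of 442 bp (chr11:119044685-119045126), 94.4% from the top of its list, touched the crypts H3K27me3 peak and had no counterpart in crypts. H3K4me1 covered part of this stretch in both compartments, with a crypts peak of 4388 bp and a villi peak of 4818 bp that stood 2.69% and 2.06% from the top of their lists.

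Cbx7 (chr15:79915807-79971119, − strand) was the only one of the 9 genes whose annotated 5′ end carried no H3K4me3. The H3K4me3 promoter peak lay over 4 internal start sites, the first of them 38467 bp downstream of the 5′ end. It measured 1143 bp in crypts (chr15:79931806-79932948) and 1023 bp in villi (chr15:79931962-79932984). The H3K27me3 promoter peak followed immediately upstream, with 2424 bp in crypts (chr15:79932935-79935358) and 2888 bp in villi (chr15:79933000-79935887). The 2 marks shared 14 bp in crypts and were 15 bp apart in villi. H3K27me3 covered 1 start site of its own there, 37220 bp downstream of the 5′ end, which was free of H3K4me3. With the 5′ end of the gene record taken as the only start site, Cbx7 had neither mark at its promoter, and the calls of the other 3 PRC1 genes stood.

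Cbx7 also had H3K27me3 in the intron upstream of these start sites, and more of it in villi. Crypts had 1 intronic peak of 1732 bp (chr15:79951935-79953666), 96.6% from the top of its list. Villi had 3, of 3845 bp (chr15:79941550-79945394), 720 bp (chr15:79946479-79947198) and 3530 bp (chr15:79950028-79953557), at 37.6%, 62.7% and 37.6% from the top. In all, 4156 bp of the window were under H3K27me3 in crypts and 10983 bp in villi (log2 ratio 1.40). All 4 intronic peaks had scores under 20. With peaks of a score of 20 or more, the log2 ratio was 0.25. The villi list was also the longer one, with 13797 H3K27me3 peaks against 7611, and 79.2% of the 4736 H3K27me3 peaks with 1 counterpart were wider in villi, with a median log2 ratio of widths of 0.32. The log2 ratio of covered bases at the other 3 genes was −0.03 at Bmi1, 0.06 at Cbx2 and −0.33 at Cbx8, with no common direction.

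The H3K27me3 promoter peaks of the PRC1 genes stood high in both lists. They lay 4.36% from the top at Cbx7, 8.46% at Cbx2, 10.9% at Bmi1 and 18.5% at Cbx8 in crypts. In villi the values were 14.3%, 15.8%, 13.2% and 19.9%. All 4 thus stood lower in the villi list than in the crypts list, by 1.37 to 9.93 percentage points. The lists differ in length, and the median over all 4736 pairs of H3K27me3 peaks was a move of 13.8 points towards the top. Over the 1036 pairs that began in the top 20% of the crypts list, a limit chosen after the values were seen, 47.2% stood lower in villi. Of these 1036, moves as far down were made by 14.9% for Cbx7, 20.1% for Cbx2, 37.6% for Bmi1 and 40.3% for Cbx8. The peak between Cbx2 and Cbx8 and those over the Cbx8 last exon and the Cbx7 intron moved up. The widths of the 4 promoter peaks changed by log2 ratios of −0.10 to 0.25.

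**Figure D3:**
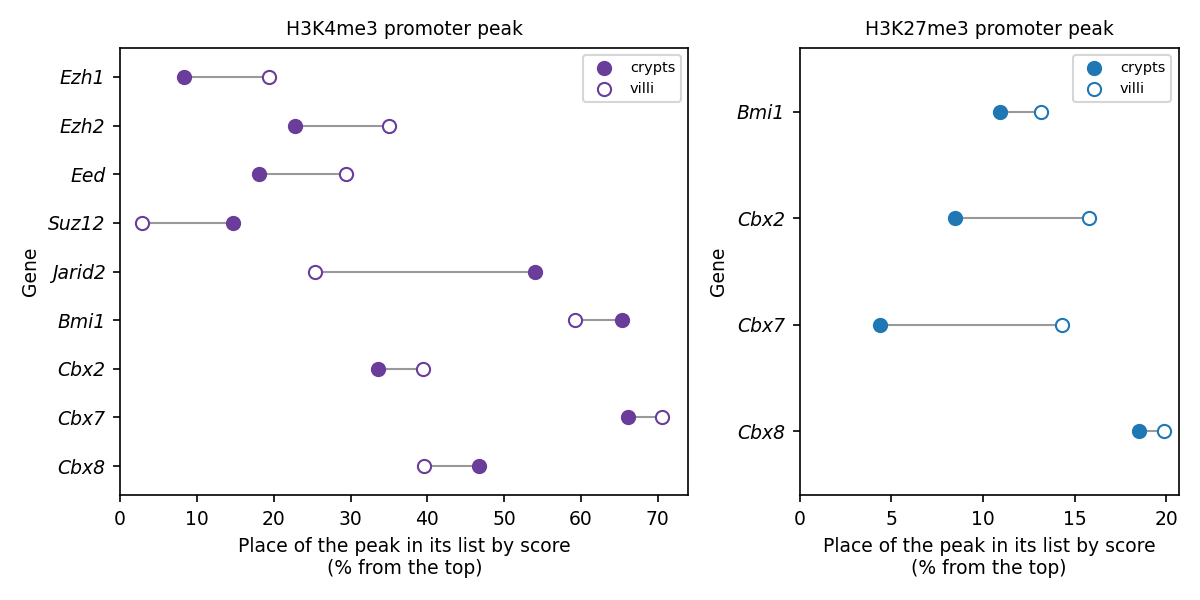
Place of the H3K4me3 peak over a start site of the 9 genes (left) and of the H3K27me3 promoter peak of the 4 PRC1 genes (right) in its own list, as the percentage of peaks from the top by score. Filled points are crypts, open points villi, joined by a grey line. Among the H3K4me3 peaks Jarid2 moved the furthest, from 54.0% to 25.3%, and all 4 H3K27me3 peaks stood lower in the villi list, as did 47.2% of the H3K27me3 pairs that began in the top 20% of the crypts list.

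The PRC2 genes carried H3K4me3 over their first start sites, and these peaks were mostly wider than those of the PRC1 genes. The peak over a start site is compared here, which leaves out the crypts peak of 343 bp upstream of Bmi1, at 85.2% from the top. The H3K4me3 peaks of the PRC2 genes had a median width of 3146 bp in crypts, with a range of 1233 to 5293 bp, against 1697 bp and 1143 to 1973 bp at the PRC1 genes. In villi the medians were 2672 and 1536 bp. The ranges overlap, since Ezh1 had one of the narrowest peaks of the 9 genes. By score the PRC2 peaks stood 8.26 to 54.0% from the top of the crypts list and the PRC1 peaks 33.6 to 66.1%. In villi the ranges were 2.80 to 35.0% and 39.5 to 70.6%, which do not overlap.

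**Figure D4:**
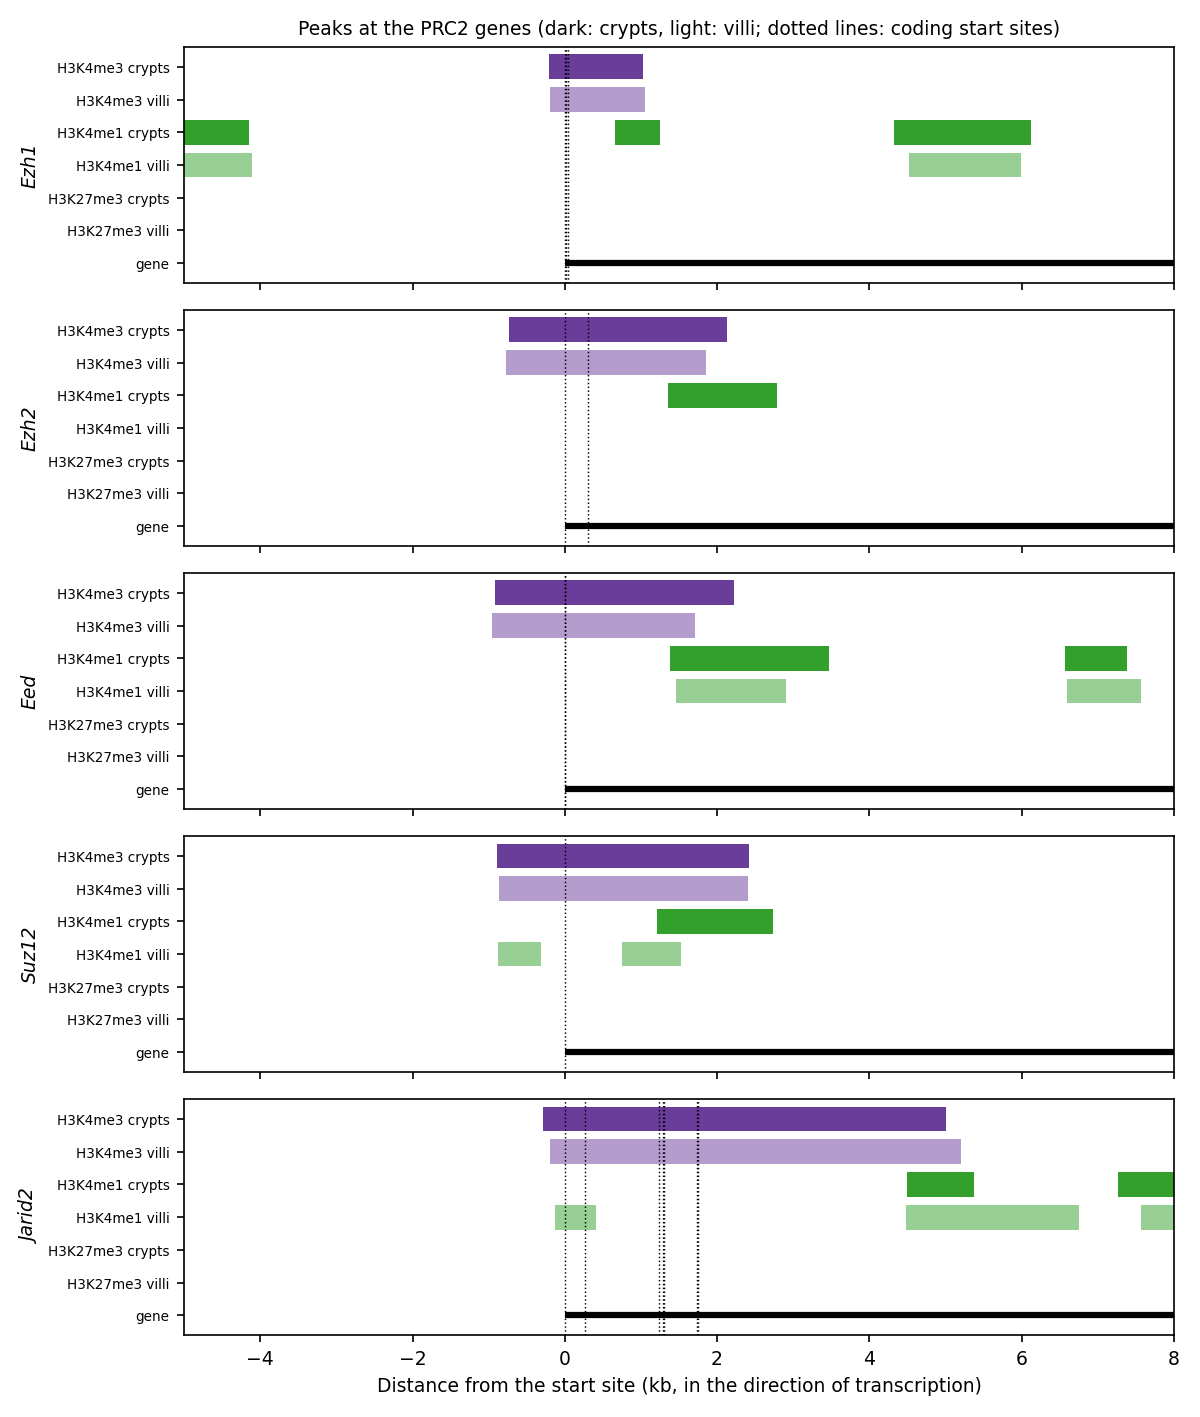
Peaks of H3K4me3 (purple), H3K4me1 (green) and H3K27me3 (blue, none called) at the 5 PRC2 genes, in kb from the first coding start site in the direction of transcription. Dark bars are crypts, light bars villi, dotted lines coding start sites and the black line the gene. Peaks that do not touch the window of gene body ± 5 kb are not drawn. The Jarid2 H3K4me3 peak covers 7 start sites and is the widest.

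Ezh1 (chr11:101191115-101226463, − strand) had a narrow H3K4me3 peak, 1233 bp wide in crypts and 1252 wide in villi. It stood 8.26% from the top in crypts and 19.4% in villi. Ezh2 (chr6:47530139-47595341, − strand), the catalytic subunit typical of dividing cells, had one 2867 bp wide in crypts and 2622 wide in villi. It moved from 22.7% to 35.0% from the top. Eed (chr7:89954654-89980983, − strand) had one 3146 bp wide in crypts and 2672 wide in villi, and moved from 18.1% to 29.4%. These 3 genes thus moved down the list by 11.1 to 12.3 points, and moves as far down were made by 8.73 to 10.5% of the 14941 pairs of H3K4me3 peaks. The Eed peak also overlaps a transcript of the opposite strand, E230029C05Rik, so its share in the mark cannot be told apart.

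Suz12 (chr11:79993106-80034123, + strand) moved the other way, from 14.7% to 2.80% from the top, with nearly equal widths, 3308 bp in crypts (chr11:79992215-79995522) and 3274 bp in villi (chr11:79992237-79995510). A move as far up was made by 13.0% of the pairs. Jarid2 (chr13:44729474-44921643, + strand) had the widest H3K4me3 peak of the 9 genes, 5293 bp in crypts (chr13:44729245-44734537) and 5392 bp in villi (chr13:44729346-44734737), over 7 start sites. Only 1.46% of the crypts peaks and 1.93% of the villi peaks were as wide. It moved from 54.0% from the top in crypts to 25.3% in villi, which 0.790% of the pairs matched or exceeded, while its width changed by a log2 ratio of 0.03. The place in a list rests on 1 library per compartment and on all other peaks of that list, so it is no measure of the amount of the mark.

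Of the 34 coding start sites of the 9 genes, 23 lay under H3K4me3 in both compartments and 3 under H3K27me3 in both, with none under both marks. Start sites that H3K4me3 left free included 2 of 4 at Ezh2, 1 of 3 at Eed, 1 of 8 at Jarid2, 4 of 6 at Bmi1 and 3 of 7 at Cbx7. The crypts and villi calls for H3K4me3 and for H3K27me3 were the same at every one of the 34. A peak over a start site was found for 55.6% of coding genes in crypts and 55.1% in villi with H3K4me3, and for 9.43% and 11.9% with H3K27me3.

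H3K4me1 was present in all 9 windows in both compartments, with 32 peaks in crypts and 31 in villi. All coding genes had an H3K4me1 peak in the window in 69.1% of cases in crypts and 68.8% in villi. At the promoter, 6 of the 9 genes had a peak in crypts and 5 in villi, against 57.9% and 56.1% of coding genes. At Cbx2 and Cbx8, H3K4me1 flanked the H3K4me3 peak on both sides in both compartments. At Cbx2 the downstream flank measured 1608 bp in crypts and 1225 bp in villi and stood 13.4% and 5.16% from the top. At Cbx7 the flank on the H3K27me3 side, 1180 bp in crypts, was not called in villi.

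The H3K4me1 promoter call, taken within 1 kb of a start site, differed between the compartments at 3 genes. Ezh1 had a promoter peak of 595 bp in crypts alone. Bmi1 had one of 754 bp in crypts alone, inside the stretch shared by H3K4me3 and H3K27me3 for most of its length. Suz12 had 2 promoter peaks in villi, of 564 and 775 bp, on either side of its start site. The first had no counterpart in crypts, and the second overlapped a crypts peak of 1520 bp that began 1217 bp downstream, outside the 1 kb. Calls in crypts alone were made at 5.69% of coding genes and calls in villi alone at 3.95%.

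Jarid2, the longest of the genes with 192170 bp, had the most H3K4me1 peaks, 7 in crypts and 10 in villi. They covered 8359 bp in crypts and 12921 bp in villi. A run of them followed the H3K4me3 peak into the first introns in both compartments. The villi list alone had a peak of 540 bp over the first 2 start sites, and a peak of 386 bp in crypts, deep in the gene, measured 1580 bp in villi. The villi peaks of Jarid2 without a crypts counterpart stood 85.1 to 90.4% from the top of their list. At scores of 20 or more, Jarid2 kept H3K4me1 in crypts and none in villi, where its highest score was 18.8. Ezh2 had 6 peaks in crypts and 4 in villi, and Ezh1 3 and 2. Eed had 2 in each, Suz12 1 and 2, Bmi1 4 and 2, Cbx2 2 and 3, Cbx7 3 and 2, and Cbx8 4 and 5. The difference thus went either way, with more peaks in crypts at 4 genes and in villi at 4. The further villi peak of Cbx2 and that of Cbx8 are the same peak (chr11:119034011-119035509), which lies between the 2 genes.

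**Figure D5:**
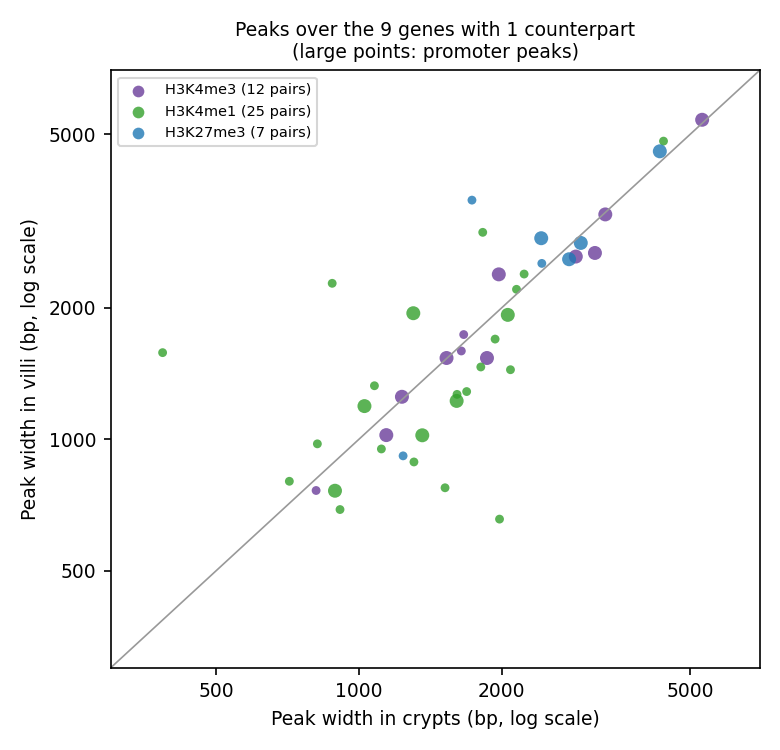
Width in villi against width in crypts, both in bp on log axes, for the 44 peaks over the 9 genes that had 1 counterpart in the other compartment. Colours give the modification, large points promoter peaks, and the grey line equal widths. The H3K4me3 points lie close to the line and the H3K4me1 points scatter furthest from it, with 20 of the 44 peaks wider in villi and 24 narrower.

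H3K9me3 was called over 1 of the 9 genes and in villi alone. Windows with an H3K9me3 peak made up 3.89% of coding genes in crypts and 3.11% in villi. The peak lay in an intron of Jarid2, 140038 bp downstream of the first start site (chr13:44869573-44869960), and measured 388 bp. Its score of 43.2 put it 2.06% from the top of the villi list, and no crypts H3K9me3 peak overlapped it. Its sequence differed from that of most H3K9me3 peaks, with 7.99 CG per 100 bp, as many as in 0.622% of the villi list, whose median was 1.14. Repeats, read as soft-masked bases, made up 1.29% of it against a median of 38.7%. The middle 200 bases (chr13:44869667-44869866, + strand, outside annotated exons, CG in capitals) held 15 CG.
Jarid2 H3K9me3: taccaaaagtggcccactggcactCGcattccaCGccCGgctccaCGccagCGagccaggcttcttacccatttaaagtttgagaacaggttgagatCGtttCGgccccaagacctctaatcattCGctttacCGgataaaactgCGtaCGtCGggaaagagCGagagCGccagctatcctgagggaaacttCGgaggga

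The promoter calls of the 8 lists can be compared gene by gene. Cbx2, Cbx7 and Cbx8 shared all 8 calls with each other, and so did Ezh2 and Eed. Bmi1 shared 7 with each Cbx gene, differing in villi H3K4me1. The fewest shared were 4, between Ezh2 or Eed and any of the 3 Cbx genes and between Suz12 and Bmi1. The H3K4me3 and H3K9me3 promoter calls, 4 of the 8, were the same at every gene, so no pair could share fewer. The pairs with 4 thus shared none of the H3K4me1 and H3K27me3 calls. The 8 calls come from 8 libraries and are given as a description.

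Other genes of the pathway were counted from a list of 35. H3K4me3 stood at 34 promoters in each compartment, the exception in both being Kdm6b, an H3K27 demethylase, which had 4 H3K4me3 peaks elsewhere in its window in each compartment, over 40.5% of it in crypts and 40.1% in villi. H3K27me3 stood at 2 promoters in crypts and 6 in villi, among them 1 and 2 of 7 PRC2 partners and 1 and 4 of 21 PRC1 genes. None of 4 opposing enzymes or of 3 HP1 genes had one. Epop, a PRC2 partner, had an H3K27me3 peak that measured 9548 bp in crypts and 9408 bp in villi and covered a start site, and Auts2, a subunit of some PRC1 forms, had promoter peaks in both compartments. Phf19, Pcgf5, Cbx6 and Bcor had a promoter peak in villi alone, of 929 to 4215 bp and at 32.0 to 74.2% from the top of the list. Calls in villi alone were made at 3.62% of coding genes and calls in crypts alone at 0.631%.

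The compartments were checked against markers by the H3K4me3 promoter peak. Such a peak stood at 5 of 6 crypts markers in crypts and at 4 in villi, and Olfm4, a stem cell marker, had it in crypts alone. All 8 villi markers had one in both. Of the 5 leukocyte markers, Ptprc, Cd3e and Cd8a had it in the villi library, and the crypts library had it at 0 of the 5. For the mesenchyme and muscle markers the counts were 1 of 5 in crypts and 2 in villi, and neither of the 2 endothelium markers had it. The part of leukocytes in the villi values of the 9 genes was not tested. In mixed tissue, H3K4me3 and H3K27me3 on the same allele and on alleles of different cells cannot be told apart, nor can loss of a mark from an intact H3 tail and loss of the tail.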

How the data were processed

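ChIP-seq (ChIP-Rx) peak lists of mouse crypts and villi were used for 4 modifications, 1 library each. The authors aligned read pairs with bowtie 1.1.2 to mm10 and dm6, took out PCR duplicates (samblaster) and reads mapping to either genome alike, and ran MACS2 2.1.1 on each library at a p-value of 1e-10. The deposited peak score was read as a −log10 p-value of the authors, since its minimum was 10.0 over the 8 lists, and could also be a q-value. The spike-in does not scale it and it depends on depth, which the lists do not give, so it served only to rank peaks within a list. H3K9me2 lists and inputs were not used.

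Genes and coding start sites came from GENCODE M21 on GRCm38. Overlap meant at least 1 bp, and peaks of crypts and villi were paired where each overlapped exactly 1 of the other. All 9 genes were named. Other pathway genes were named with an H3K27me3 promoter peak, an H3K4me3 or H3K27me3 promoter call that differed between compartments, or a place in a window. Kdm6b was also named, as the only listed gene without an H3K4me3 promoter peak. Members and lists were chosen with earlier results of these data known. The code (Python 3.11.15, NumPy 2.4.6, pandas 2.3.3, Matplotlib 3.10.9) was tested on simulated data. Alternatives covered the window, the overlap, the start sites, the score, the list length and merging of peaks under 1 kb apart.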

Additional observations from a re-analysis of the deposited data

How the results depend on the processing

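Among the 9 genes, the division into PRC1 genes with H3K27me3 and PRC2 genes without it was kept under the settings tried, but for Cbx7 under 1 of them and Cbx2 under another. Several of these settings could not have changed it. Settings were tried on these 9 genes alone. H3K27me3 promoter peaks stayed at Bmi1, Cbx2, Cbx7 and Cbx8 in both compartments with 2.5 kb around the start sites. They also stayed with the top 50% of each list, with scores of 20 or more and with lists of equal length. None of these settings could have removed them. The wider window holds the narrower one, and the peaks stood at most 19.9% from the top, with scores of 24.06 or more. With the 5′ end of the gene as the only start site, 3 of the genes kept the call and Cbx7 lost it. No setting could have given a PRC2 gene an H3K27me3 peak, since each looked within the windows of gene body ± 5 kb, which held none. Counts of H3K4me1 peaks depended on either score setting and those of H3K4me3 on the top 50% alone, with 13 and 12 H3K4me3 peaks at scores of 20 or more. With the top 50% of each list, H3K4me3 peaks over the 9 genes numbered 7 in crypts and 8 in villi, and H3K4me1 peaks 15 and 11. An H3K4me3 promoter peak was kept at 6 genes in crypts and 7 in villi. Bmi1 and Cbx7 lost it in both compartments and Jarid2 in crypts. Of the PRC1 genes, Cbx2 and Cbx8 alone then had both H3K4me3 and H3K27me3 at the promoter. At the same setting 4 genes in crypts and 2 in villi had an H3K4me1 promoter peak. With scores of 20 or more, there were 15 H3K4me1 peaks in crypts and 10 in the villi list. Again 4 genes in crypts and 2 in villi had an H3K4me1 promoter peak. Under either score setting this call differed between the compartments at Bmi1 and Cbx7, and no longer at Ezh1 and Suz12. With 2.5 kb around the start sites, 9 genes in crypts and 6 in villi had an H3K4me1 promoter peak. The call then differed at Ezh1, Ezh2 and Bmi1. With the gene body alone, there were 5 H3K27me3 peaks in crypts and 8 in villi, against 10 and 12 with the flanks. The 10 and 12 count the peak between Cbx2 and Cbx8 for both genes, and the distinct peaks were 9 and 11. Counted per gene in the same way, there were 10 in each compartment with lists of equal length and 8 in each with scores of 20 or more. The gene body of Cbx2 alone held none and gave no ratio. The log2 ratio of bases under H3K27me3 at Cbx7 was 1.30 with lists of equal length. The log2 ratio of bases under H3K27me3 kept its sign at each of the 4 PRC1 genes in the settings that gave one. Peak counts did not all keep their direction. The higher H3K27me3 count in villi was gone with lists of equal length and with scores of 20 or more. The H3K4me3 count, 13 in each compartment, was higher in villi with the top 50% and in crypts with scores of 20 or more. The higher count of Jarid2 H3K4me1 peaks in villi turned at scores of 20 or more. No paired analysis was possible because each group is 1 library. Depth is unknown from peak lists, so the absence of a call does not show the absence of a mark.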
